A study of Mus musculus with 2040 samples.

Results

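Hoxa2, Hoxa3, Hoxa4, Hoxa5, Hoxb2, Hoxb3, Hoxb4, Hoxb5, Hoxc4 and Hoxd3 were described in single astrocytes sorted from midbrain and hindbrain (MB/HB). They are 10 of 39 Hox genes and of 32245 gene columns and were read in 2040 cells. The 10 were chosen by name, with earlier results of these data known. The cells came from 47 C57Bl/6J mice, each given an AAV in which an enhancer or promoter drives the SYFP2 reporter, and were flow-sorted for SYFP2. MB/HB cells came from 2 mice given MGT_E160m (mice A and B, 43 and 39 cells) and 2 given eHGT_381h (mice C and D, 48 and 44 cells), lettered in the order of their label numbers. They were compared with 81 cells of cerebellar cortex (CBX, 2 mice, vector eHGT_375m) and 1785 cells of primary visual cortex (VISp, 41 mice, 27 vectors). Each vector served a single tissue, so vector and tissue cannot be told apart, and only cells in which the reporter was active were sorted. Age, sex, viral dose and the borders of the MB/HB dissection are not given in the sources used here.

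Hox genes encode homeodomain transcription factors, lie in 4 clusters, and give embryonic cells their position along the head-to-tail axis. Genes near the 3′ end of a cluster (low numbers) are switched on early and reach furthest forward, into the hindbrain, whereas midbrain and forebrain normally lack them. Genes of the same number in different clusters form a paralog group. Hox proteins bind DNA with TALE partners (Pbx, Meis), retinoic acid induces the 3′ genes in the hindbrain, and Polycomb proteins keep the clusters silent elsewhere.

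The promoters of 3 members are shown because Hoxa2 was the member found in most MB/HB astrocytes, Hoxa5 had the most RNA per positive cell for its length, and Hoxb4 was never found without another member. They are RefSeq windows on GRCm38.p6, a patch release of mm10, from 250 bases before to 50 after the gene's start, 5′ to 3′ on the gene's strand: chr6:52164782-52165081 (minus) for Hoxa2, chr6:52204538-52204837 (minus) for Hoxa5 and chr11:96318017-96318316 (plus) for Hoxb4. Capitals mark matches on either strand to the PBX-HOX motif TGATNNAT (Hoxa2) and to the retinoid half-site AGGTCA (Hoxa5, Hoxb4).
Hoxa2: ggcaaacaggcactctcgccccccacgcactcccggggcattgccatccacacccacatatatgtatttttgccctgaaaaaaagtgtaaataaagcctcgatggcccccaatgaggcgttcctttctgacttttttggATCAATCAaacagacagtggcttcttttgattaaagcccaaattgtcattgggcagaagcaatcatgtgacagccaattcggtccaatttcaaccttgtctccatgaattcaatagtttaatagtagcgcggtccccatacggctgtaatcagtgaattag
Hoxa5: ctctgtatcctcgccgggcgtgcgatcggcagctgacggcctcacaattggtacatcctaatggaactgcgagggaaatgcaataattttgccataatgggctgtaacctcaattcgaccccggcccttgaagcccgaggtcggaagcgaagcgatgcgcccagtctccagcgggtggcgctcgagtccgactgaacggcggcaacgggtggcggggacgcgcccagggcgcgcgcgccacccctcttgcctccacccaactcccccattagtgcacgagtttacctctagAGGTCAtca
Hoxb4: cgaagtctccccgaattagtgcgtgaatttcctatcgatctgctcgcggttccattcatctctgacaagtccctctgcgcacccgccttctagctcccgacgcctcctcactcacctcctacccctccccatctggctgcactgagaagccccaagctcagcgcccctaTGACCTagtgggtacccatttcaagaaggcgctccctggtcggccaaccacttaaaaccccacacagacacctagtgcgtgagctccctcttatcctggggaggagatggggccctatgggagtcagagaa
None of the 3 windows held the homeodomain core TAATTA, and no matches overlapped. TGATNNAT occurred in 8.85%, AGGTCA in 16.3% and TAATTA in 5.29% of all 32851 promoter windows of that length. The Hoxa5 window held 29 CpG dinucleotides, an observed-to-expected ratio of 1.02 against a median of 0.384 over all windows, and the Hoxa2 and Hoxb4 windows held 9 and 14. Hoxa3, Hoxc4 and Hoxd3 were also matched in the RefSeq table, and Hoxc4 and Hoxd3 had an AGGTCA match. The others are Hoxa4, Hoxb2, Hoxb3 and Hoxb5.

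Cell classes came from clustering without any Hox gene, so a cell's class did not depend on the members. Mice A, B, C and D gave 41, 36, 39 and 32 astrocyte-like cells, and MB/HB also gave 15 neuron-like, 8 oligodendrocyte-like and 3 unnamed cells. The summed mean level of 12 astrocyte markers was 32641 to 39123 CPM (reads per 1000000 of a cell's reads) in the MB/HB mice. In the 19 VISp mice with at least 10 astrocyte-like cells it was 30267 to 39321 CPM. Clusters were named from this marker list, so these sums cannot test the label. Of the 12, limma (below) called 4 higher and 3 lower in MB/HB than in VISp, beside 6.17 and 6.37% of all genes. Most MB/HB cells of the class lay in cluster 4, most CBX cells in cluster 8 and most VISp cells in clusters 0 and 3. Median depth was 410437, 375425 and 431572 reads per astrocyte-like cell in MB/HB, CBX and VISp. Markers of other cells were not level: summed oligodendrocyte markers reached 631.3 to 2451 CPM in MB/HB, 2191 to 2488 CPM in CBX and 164.9 to 536.9 CPM in VISp. Endothelial markers spanned 0.657 to 560.7 CPM in MB/HB against 0.776 to 23.1 CPM in VISp, and neuron markers 14.4 to 394.9 against 19.1 to 375.95 CPM. Oligodendrocyte precursor markers reached 112.6 to 232.7 CPM in MB/HB against 4.97 to 51.4 CPM in VISp, and fibroblast markers 29.9 to 70.6 against 0.192 to 13.8 CPM, so neither overlapped, nor did the oligodendrocyte sums. Pericyte and smooth muscle markers spanned 6.34 to 1367 CPM in MB/HB and 30.4 to 98.4 CPM in VISp. The part of these markers in the results was not tested.

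Reads of the 10 genes were found in 63 MB/HB astrocyte-like cells. The share was 43.9% in mouse A, 61.1% in B, 33.3% in C and 31.25% in D, a mean of 42.4% ± 13.6 (SD, n = 4 mice). In VISp 20 of 1785 cells had a member (1.12%, exact 95% interval 0.686 to 1.73%), and 25 of the 41 mice had no such cell. Every MB/HB mouse lay above the highest VISp mouse (7.50%). These VISp values cover sorted cells of all classes. Among VISp astrocyte-like cells 14 of 739 had a member (1.89%), and the highest of 19 mice was at 5.88%. In CBX 3 of 81 cells had a member (3.70%, exact interval 0.770 to 10.4%). Without cells carrying markers of another class the MB/HB mean was 43.96%, and with each cell thinned to 50000 reads it was 34.03%. Intervals on shares cover counting error only.

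Read numbers differed too. The 110 detections of a member in MB/HB astrocyte-like cells had a median of 14 reads, and 11 rested on 1 read. In VISp, Hoxb2 made up 10 of the detections, 9 of them with 2 reads or fewer. Hoxa2, Hoxa4, Hoxb4 and Hoxb5 had 0 reads in 1785 VISp cells, which allows a share of up to 0.168% each. The only VISp detection with more than 4 reads was Hoxd3 in 1 cell.

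**Figure D1:**
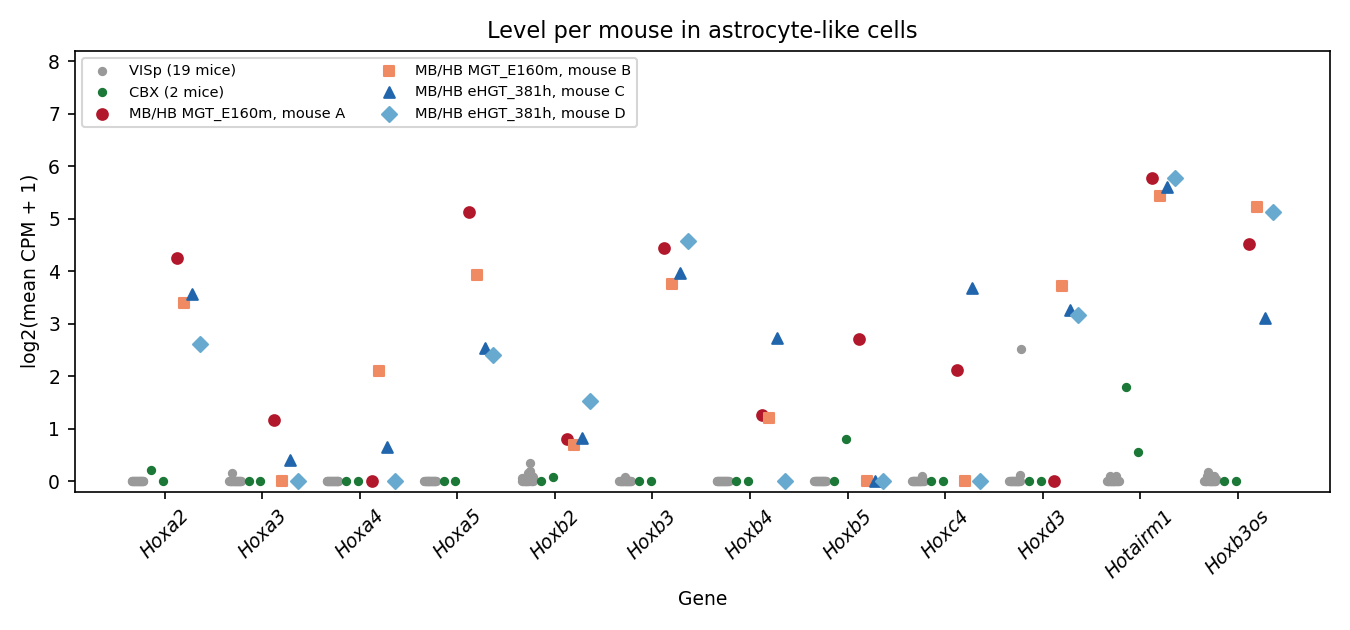
Level of each member, and of the non-coding RNAs Hotairm1 and Hoxb3os, as log2(mean CPM + 1) over the astrocyte-like cells of a mouse; each point is 1 mouse (4 MB/HB, 2 CBX, 19 VISp). Hoxa2, Hoxa5, Hoxb2 and Hoxb3 lay above every VISp and CBX mouse in all 4 MB/HB mice, and each of the other members was at 0 in 1 to 3 MB/HB mice. All 6 MB/HB astrocyte-like cells with Hoxb2 also had Hoxb3os, which overlaps it.

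Levels were compared between mice on the mean CPM of their astrocyte-like cells, in limma with Benjamini-Hochberg adjustment over 4457 genes. Differences are on the log2(mean CPM + 1) scale, which understates changes of low genes. Of the members, 6 passed the filter on low values (mean CPM of at least 1 in 2 mice) and 4 did not (Hoxa3, Hoxa4, Hoxb2, Hoxb5). All 6 were called higher in MB/HB than in VISp, where 6.17% of all genes tested were called higher. Against CBX 5 of the 6 were called higher, all but Hoxc4, beside 4.85% of all genes. The 6 passed the filter through MB/HB mice, so these counts only describe them. Their median difference was 2.93 against VISp (-0.05 over all genes) and 2.95 against CBX (-0.0024 over all genes). Most VISp mice were at 0, so fitted errors are smaller than the spread among MB/HB mice: for Hoxb4 the SE against VISp was 0.26 and the SD over the 4 MB/HB mice 1.11.

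In paralog group 2, Hoxa2, which patterns the second branchial arch and anterior hindbrain, was the member found in most cells. Mice A to D had it in 13, 12, 8 and 6 cells. Its mean level was 18.1, 9.56, 10.9 and 5.15 CPM, against 0 in all 19 VISp mice and 0.154 and 0 CPM in the CBX mice. The tissues did not overlap. The difference was 3.46 (SE 0.24) against VISp and 3.36 (SE 0.38) against CBX, with limma adjusted p-values of 9.75e-13 and 9.24e-08.
Hoxb2, its paralog, which acts in facial motor neuron development, was rarer. It was found in 1, 2, 2 and 1 cells, at 0.755, 0.614, 0.767 and 1.89 CPM. It was not tested, but all 4 mice lay above the highest VISp mouse (0.280 CPM) and both CBX mice (0 and 0.0577 CPM). All 6 Hoxb2 cells also had reads of the overlapping antisense RNA Hoxb3os, so the level of Hoxb2 is uncertain (below).

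In paralog group 3, Hoxb3, a hindbrain gene of the Hoxb cluster, was the next most often detected. It was found in 8, 8, 9 and 1 cells, at 20.7, 12.4, 14.7 and 22.9 CPM. Mouse D, with 1 positive cell, thus had the highest level. No VISp mouse exceeded 0.0510 CPM and both CBX mice were at 0, so the tissues did not overlap. The difference was 4.18 (SE 0.23) against VISp and 4.18 (SE 0.37) against CBX, with limma adjusted p-values of 5.04e-15 and 5.96e-10.
Hoxd3, which shapes the first vertebrae in the embryo, was found in 0, 3, 2 and 1 cells, at 0, 12.1, 8.65 and 7.93 CPM. VISp mice had a median of 0 and a highest value of 4.75 CPM, so the tissues overlapped through mouse A. The difference was 2.40 (SE 0.43, limma adjusted p = 0.000136) against VISp and 2.54 (SE 0.68, adjusted p = 0.0145) against CBX. The second call was lost without either CBX mouse (adjusted p = 0.122 and 0.138) and with only VISp and CBX mice from sort plates shared with MB/HB cells (0.056, range over all alternatives 5.38e-05 to 0.138). Hoxa3, needed for the thymus and parathyroid in the embryo, was found in 2, 0, 1 and 0 cells, at 1.25, 0, 0.328 and 0 CPM.

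In paralog group 4, no gene was found in more than 6 astrocyte-like cells. Hoxb4, a gene of the caudal hindbrain, was found in 1, 2, 3 and 0 cells, at 1.39, 1.29, 5.59 and 0 CPM. It was listed at 0 in every VISp and CBX mouse, as in mouse D. The difference was 1.29 (SE 0.26, limma adjusted p = 0.000487) against VISp. Against CBX it was also 1.29 (SE 0.41, adjusted p = 0.0409), a call lost in 8 of 15 alternatives (range 6.72e-09 to 0.239). These included leaving out either CBX mouse (0.236 and 0.239) and mouse A, B or C (0.0574, 0.0505 and 0.111).
Hoxc4 was found in 2, 0, 4 and 0 cells, at 3.34, 0, 11.8 and 0 CPM, so 1 mouse of each vector had it and 1 had not. It was called against VISp (1.44, SE 0.36, adjusted p = 0.00467 by limma). It was not called against CBX (adjusted p = 0.117), except without mouse D (0.0162), without mouse B (0.0165) or with all sorted cells (4.54e-05; range 4.54e-05 to 0.402). Hoxa4 was found in 0, 2, 1 and 0 cells, at 0, 3.27, 0.574 and 0 CPM.

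In paralog group 5, Hoxa5, known for its part in lung development, was found in 5, 5, 2 and 1 cells. Its levels were 34.1, 14.2, 4.79 and 4.28 CPM, against 0 in all VISp and CBX mice tested. The difference was 3.50 against both (SE 0.31 and 0.48, limma adjusted p = 2.38e-10 and 3.69e-06). Positive cells held a median of 74 Hoxa5 reads, against 9 for Hoxa2 and 15.5 for Hoxb3. Hoxb5 was found in 2 cells of mouse A (5.55 CPM), in no other MB/HB astrocyte, and in 1 CBX cell with 9 reads.

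Per length of exon, Hoxa5 had the highest mean level over the 4 mice (7.64 CPM per kb, SD 7.43), followed by Hoxa2 (6.15, SD 3.02) and Hoxb3 (4.16, SD 1.16). The values of the 4 mice overlapped between these neighbours. Hoxd3 (1.71, SD 1.22), Hoxc4 (1.47, SD 2.17), Hoxb4 (0.807, SD 0.948), Hoxa4 (0.603, SD 0.981), Hoxb5 (0.498, SD 0.996), Hoxb2 (0.289, SD 0.170) and Hoxa3 (0.0656, SD 0.0982) followed, and neighbours among them overlapped too. Every mouse was higher for Hoxb3 (2.93 to 5.39 CPM per kb) than any mouse for Hoxd3 (0 to 2.89). In positive cells alone, Hoxa5 had a median of 72.98 CPM per kb and Hoxa2 11.8 CPM per kb. The member found in most cells was thus not the one with most RNA per positive cell.

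**Figure D2:**
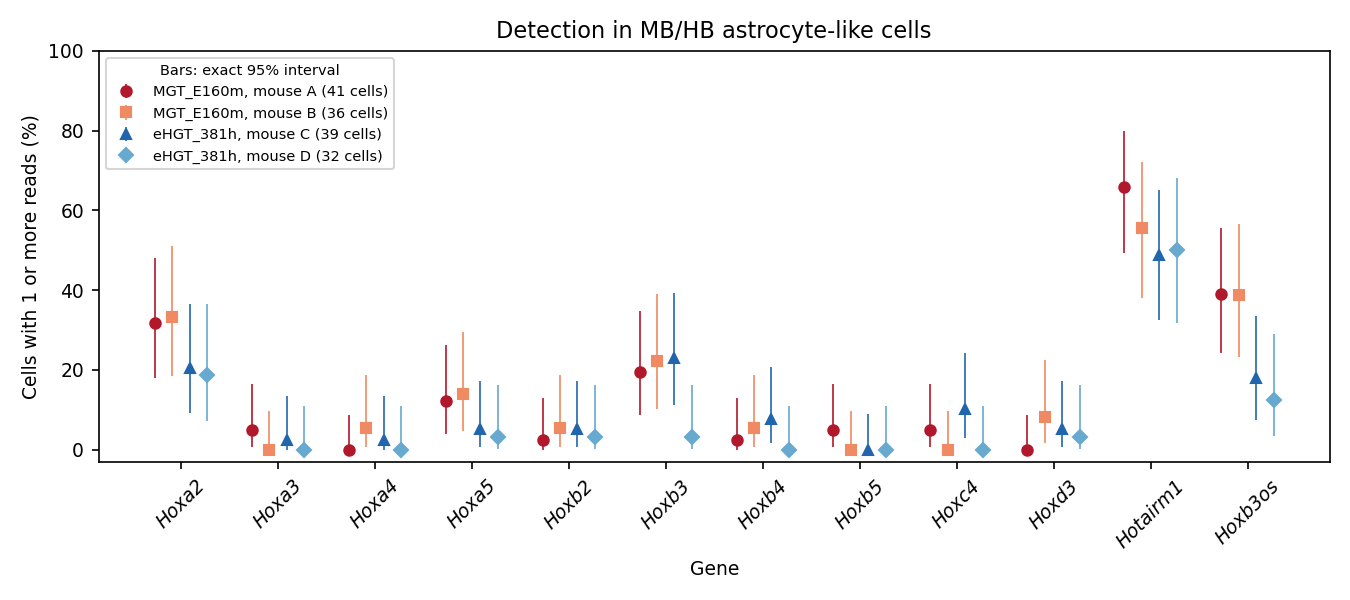
Percent of MB/HB astrocyte-like cells with 1 or more reads of each gene, by mouse, with exact 95% intervals that cover counting error only. Hoxa2 lay between 18.75 and 33.3% and Hotairm1 between 48.7 and 65.9% in the 4 mice, and mouse D had Hoxb3 in 3.125% of its cells against 19.5 to 23.1% in mice A, B and C.

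Between the vectors, 0.494% of 4457 genes were called in either direction, and 1 of the 6 members tested was. Hoxa5 was higher with MGT_E160m than with eHGT_381h by 2.06 (SE 0.41, limma adjusted p = 0.00695), where the median over all genes was 0.20. Both MGT_E160m mice lay above both eHGT_381h mice. With 2 mice a vector, the test rests on the spread pooled over all groups. The call was lost with a pseudocount of 0.1 CPM (adjusted p = 0.198) and when VISp and CBX mice without cells on the sort plates of MB/HB cells were left out (0.149), in a range of 8.52e-12 to 0.198. Hoxa2 (0.73, SE 0.41, adjusted p = 0.534) and Hoxb3 (-0.18, SE 0.42, adjusted p = 0.952) were not called in the same limma fit, which does not show that their levels were alike.

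Per cell, most positive astrocytes held 1 member. Of the 63 cells, 39 had 1 member, 24 had 2 or more and 12 had 3 or more, with 6 at most. No VISp or CBX cell had 2 or more. Cells with 2 or more numbered 8, 7, 9 and 0 in mice A, B, C and D. All 10 positive astrocytes of mouse D thus held a single member. Its sorted cells had a median of 321813 reads and 2882 genes, against 334789 to 476381 reads and 3871 to 5032 genes in mice A, B and C, and the part of depth in this result was not tested. The mean number of members per cell was 0.727 ± 0.282 (SD, n = 4 mice).

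**Figure D3:**
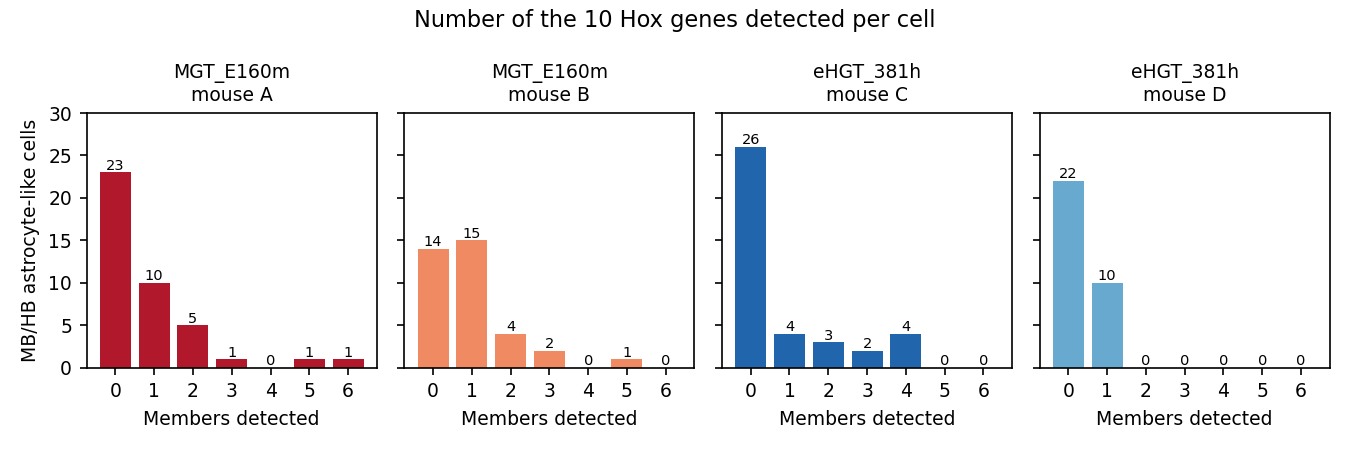
Number of MB/HB astrocyte-like cells (vertical axis) by the number of the 10 Hox genes detected in the cell (horizontal axis), with 1 panel a mouse. Mice A, B and C had cells with up to 6, 5 and 4 members, and mouse D had none above 1.

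The 63 positive cells fell into 26 different combinations, of which 18 were seen in 1 cell. Hoxa2 alone was the commonest (8, 9, 4 and 6 cells in mice A to D), followed by Hoxb3 alone (6 cells). Of the 24 cells with 2 or more members, 20 held Hoxb3 and 12 held Hoxa2, and none lacked both. Hoxa2 was alone in 27 of its 39 cells, whereas Hoxb3 was alone in 6 of 26 and Hoxa5 in 2 of 13. Hoxa3 (3 cells), Hoxb4 (6), Hoxb5 (2) and Hoxc4 (6) were never alone.
All 6 Hoxb4 cells and 5 of 6 Hoxc4 cells also had Hoxb3. Hoxb3 was found in 61.5% of the 13 Hoxa5 cells and in 13.3% of cells without Hoxa5. For Hoxa2 the shares lay closer, with Hoxb3 in 20.5% of the 39 cells with Hoxa2 and 16.5% of those without. Cells of 1 mouse are not replicates, and these shares were not tested.

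Ordered by paralog group, 60 cells held a gene of group 2 or 3 and 22 a gene of group 4 or 5. Of the 22, 19 (86.4%) also held a group 2 or 3 gene, while 31.7% of the 60 held a group 4 or 5 gene. By mouse, 7 of 7, 5 of 7, 7 of 7 and 0 of 1 cells with group 4 or 5 genes had group 2 or 3 genes. Genes of group 2 or 3 without the later groups made up most positive cells. The cell with 6 members, from mouse A, combined Hoxa3, Hoxa5, Hoxb2, Hoxb3, Hoxb5 and Hoxc4.

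**Figure D4:**
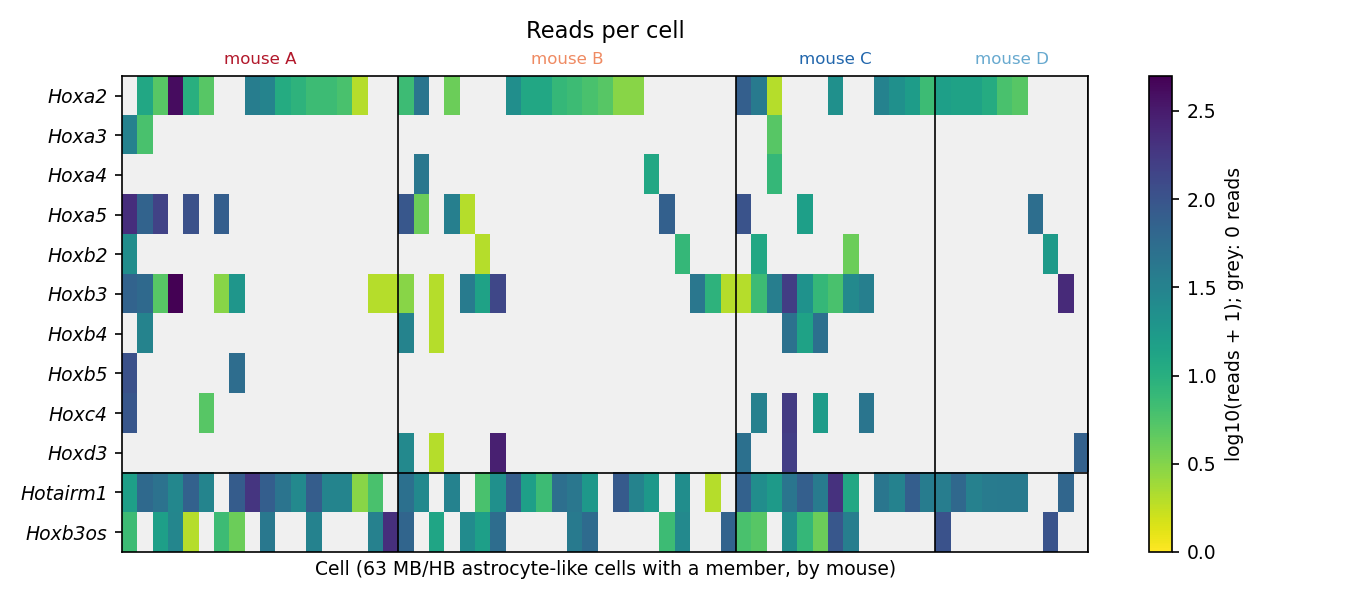
Reads of each member and of 2 non-coding RNAs (rows) in the 63 MB/HB astrocyte-like cells with a member (columns), grouped by mouse and sorted by the number of members; colour is log10(reads + 1) and grey is 0 reads. Cells with Hoxa2 alone appear in all 4 mice, and 38 of the 39 Hoxa2 cells also have Hotairm1.

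Depth and marker sums were set beside each other for cells with and without a member. The 85 astrocyte-like cells without a member had a median of 409654 reads and 3880 genes, and the 63 with a member 413972 reads and 4029 genes. Within mice, cells without and with a member had median summed neuron markers of 2.20 and 0 CPM in mouse A, 319.9 and 190.5 CPM in mouse B, 2.39 and 2.25 CPM in mouse C and 0 and 1.44 CPM in mouse D, so positive cells were lower in mice A, B and C. Median oligodendrocyte markers were 413.3 and 413.5 CPM in mouse A, 1621 and 1449 CPM in mouse B, 1055 and 782.3 CPM in mouse C and 603.1 and 1013 CPM in mouse D, lower in positive cells of mice B and C. The 24 cells with 2 or more members were deeper, with a median of 491964 reads, and the part of depth in their number was not tested.

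The non-coding RNAs of the clusters included the gene found in most cells. Hotairm1, an antisense RNA of the Hoxa cluster, was found in 27, 20, 19 and 16 cells of mice A to D, at 53.6, 42.4, 47.6 and 53.9 CPM. CBX mice had 2.49 and 0.471 CPM (8 of 81 cells, 12 reads at most) and VISp mice no more than 0.0779 CPM, so the tissues did not overlap. The difference was 5.64 (SE 0.28) against VISp and 4.47 (SE 0.44) against CBX, with limma adjusted p-values of 2.88e-16 and 7.48e-09.
Hoxb3os, antisense to Hoxb3 and Hoxb2, was found in 16, 14, 7 and 4 cells, at 22.03, 36.6, 7.66 and 34.2 CPM. Limma called it higher against VISp (4.48, SE 0.29, adjusted p = 1.3e-13) and CBX (4.50, SE 0.45, adjusted p = 8.68e-09). Of 9 non-coding RNAs of the clusters, 4 were tested and 3 called higher in both comparisons, the third being Hoxaas2, found in 7 cells. Of all genes tested, 6.17% were called higher against VISp and 4.85% against CBX. The 4 RNAs passed the filter through MB/HB mice, so these counts only describe them. Hoxaas3 was not called (0.73, SE 0.26, adjusted p = 0.0685 against VISp).

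Hotairm1 accompanied Hoxa2 in 38 of 39 cells and was found in 40.4% of cells without Hoxa2. Over all members it was in 80.95% of positive and 36.5% of negative cells, and the share was higher in positive cells in each of the 4 mice. Hoxb3os was in 46.03% of positive and 14.1% of negative cells, also higher in each mouse. In the mm10 annotation (GENCODE M21) exons of Hotairm1 and Hoxa2 do not overlap. Hoxb3os shares 2250 exonic bases with Hoxb3 and 953 with Hoxb2 on the other strand, and without strand in the counting such reads cannot be told apart, so Hoxb3 and Hoxb2 are uncertain where Hoxb3os is present. Hoxb3 had 20 cells with Hoxb3os (median 6.5 reads) and 6 without it (median 38 reads). All 6 Hoxb2 cells had Hoxb3os, so no Hoxb2 detection in these cells was free of this overlap. Leaving out Hoxb2 and Hoxb3, 53 astrocyte-like cells held a member and 15 held 2 or more. Exons of Hoxd3 also overlap Hoxd4, Hoxd3os1 and Haglr, those of Hoxa3 overlap Hoxaas2 and Hoxaas3, and those of Hoxb5 overlap Hoxb5os, so these pairs are uncertain in the same way.

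**Figure D5:**
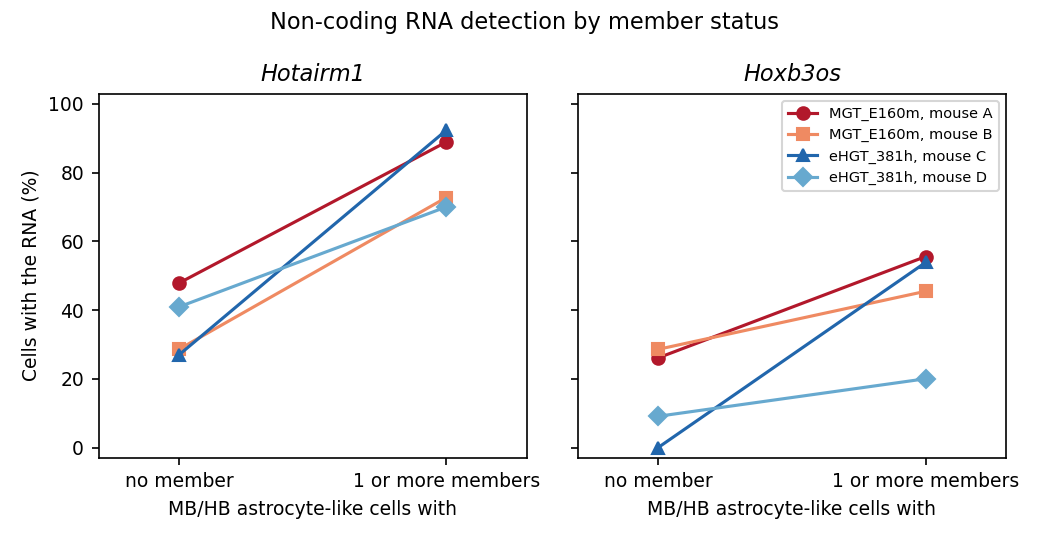
Percent of MB/HB astrocyte-like cells with Hotairm1 (left) and Hoxb3os (right) among cells without a member and cells with 1 or more; each line joins both shares of 1 mouse. All 4 lines rise in both panels, from 26.9 to 47.8% up to 70 to 92.3% for Hotairm1.

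Of the other Hox genes, Hoxb6 and Hoxc5 were tested and called higher than in VISp, where 6.17% of all genes were. Both passed the filter through MB/HB mice, so these calls only describe them. Hoxb6 was found in 2, 1, 1 and 1 cells, at 6.31, 3.44, 2.82 and 14.96 CPM (2.74, SE 0.25, adjusted p = 7.95e-10 by limma). Hoxc5 was found in 1, 0, 2 and 1 cells (1.02, SE 0.28, adjusted p = 0.0101), a call lost with only VISp and CBX mice from shared sort plates (0.0649, range 2.34e-05 to 0.0649). Each of these levels rests on 0 to 2 cells a mouse. Hoxb1 was listed at 0 in all 25 mice.

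Members were also found in neuron-like MB/HB cells. Of 15 such cells, 12 from mouse D, 5 had a member, all from that mouse, and 4 had 2 or more. Hoxb2 was found in 4, Hoxc4 in 3 and Hoxa2 in 0. Among the 8 oligodendrocyte-like cells, all from mouse C, 2 had a member. No test between classes was made on so few cells.

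All 9 TALE cofactors were tested, and 1 was called higher than in VISp. Meis1, a DNA-binding partner of Hox proteins, was at 85.5, 81.9, 97.3 and 135.6 CPM in mice A to D and was called higher (2.13, SE 0.40, adjusted p = 0.000213 by limma). Meis2 was called lower than in VISp, where 6.37% of all genes were (-1.20, SE 0.21, adjusted p = 0.000101) and higher than in CBX (6.34, SE 0.33, adjusted p = 3.08e-15), the only 1 of the 9 called there. With all sorted cells Meis2 changed sign against VISp and was not called, and the Meis2 call against CBX was lost (0.0582, range 4.14e-16 to 0.0582). Meis1 was detected in 57.1% of MB/HB astrocytes with a member and 41.2% of those without.

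Of 16 retinoic acid genes, 11 were tested, and 3 were called higher than in VISp. Cyp26b1, an enzyme that degrades retinoic acid, was at 92.6, 79.02, 54.97 and 108.1 CPM in MB/HB and listed at 0 in every VISp and CBX mouse (6.36, SE 0.28, adjusted p = 9.33e-18 by limma against VISp). Aldh1a1, which makes retinoic acid, was at 1083, 1039, 1227 and 1009 CPM, above VISp (2.50, SE 0.21, adjusted p = 7.07e-11). Against CBX it was called too (1.03, SE 0.33, adjusted p = 0.0443), but not in 11 of 16 alternatives, among them leaving out any 1 CBX or MB/HB mouse (range 0.0291 to 0.869). The receptor gene Rarb was called against VISp (1.31, SE 0.39, adjusted p = 0.0227), but not without mouse A or B (0.0559 and 0.132) or with log2 values averaged over cells (0.0963, range 0.00974 to 0.132). Rara (-1.04, SE 0.66, adjusted p = 0.365) and Rarg (-0.17, SE 0.66, adjusted p = 0.91) were not called.

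Of the Polycomb genes, Ezh2, the H3K27 methyltransferase, was not called against VISp (-0.05, SE 0.39, adjusted p = 0.952 by limma). None of the 8 trithorax and H3K27 demethylase genes was called by limma against VISp, CBX or between vectors (0, 2 and 1 at an unadjusted p under 0.05), with Kmt2a at 0.13 (SE 0.30) against VISp. Of 7 early hindbrain regulators, 3 were tested and none was called by limma in any of these comparisons (0 at an unadjusted p under 0.05 in each).

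Of the factors of the midbrain and isthmus, Otx2, En1 and En2 were found mainly in cells without Hox reads. Otx2, which marks forebrain and midbrain, was in 11.4% of the 44 MB/HB astrocytes with no read of any Hox cluster gene and 0.962% of the others, and En1 in 13.6 and 2.88%. En1 was found in 9 of 85 cells without a member and 0 of 63 with a member, which allows a share of up to 4.76%, and 8 of the 9 came from mouse C. En2 was found in 3 cells, all from that mouse and without a Hox read. It was also found in 13 and 11 astrocyte-like cells of the CBX mice. Cluster 8, which held most CBX cells, also held 6 MB/HB cells. Whether the En1 and En2 cells were among these 6 was not tested. Pax2 and Pax5 differed less in the same direction, and Lmx1b went the other way. Pax2 was in 25 and 19.2% of cells without and with a Hox read, Pax5 in 2.27 and 1.92%. Lmx1b was in 2.27 and 6.73%, and Fgf8 was not found in these cells. These shares were not tested. Of 6 tested, Otx2 (1.76, SE 0.41, adjusted p = 0.00245 by limma) and En1 (0.92, SE 0.31, adjusted p = 0.0461) were called higher than in VISp, and the En1 call was lost in 6 of 13 alternatives, among them leaving out mouse A (0.0532, range 1.35e-07 to 0.15). Against CBX, where 4.11% of all genes were called lower, En2 was too (-3.21, SE 0.60, adjusted p = 0.000339). That call was lost with all sorted cells (0.329, range 7.98e-11 to 0.329). Of the forebrain factors, Lhx2, Emx2 and Otx1 were called lower than in VISp by limma (-7.23, -5.10 and -4.45). With all sorted cells the Emx2 and Otx1 calls were lost, at differences of -2.40 (limma adjusted p = 0.216, range 4.53e-11 to 0.216) and -1.49 (0.53, range 7.23e-12 to 0.53).

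By Pearson correlation over the 25 mice, the non-Hox genes most like the mean of the members, among 4444 genes, were B230323A14Rik (0.991), Cyp26b1 (0.974), Kcns3 (0.972), A330087D11Rik (0.966) and Car14 (0.944). These values mainly set the 4 MB/HB mice apart from the other 21. Car14, a membrane carbonic anhydrase, had a mean of 9.19 ± 0.38 (SD, n = 4) on the log2(mean CPM + 1) scale in MB/HB against 0.87 ± 0.96 (SD, n = 19) in VISp. Among MB/HB cells, the gene that followed the number of members per cell most closely, averaged over the 4 mice and 1947 genes, was Hopx (0.383, by mouse 0.259 to 0.438). Nkx6-2, a homeodomain gene of the ventral neural tube, came next (0.352, by mouse 0.0174 to 0.499), and was detected in 41.3% of cells with a member and 16.5% of those without. The lowest value was -0.255 for Cspg5. The number of members also had a correlation of 0.158 with genes and 0.149 with reads per cell, and weak correlations in sparse counts are a description only.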

How the data were processed

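Each library is a single flow-sorted cell, made with SMARTerv4 per the labels' protocols. STAR and mm10 are named in the submitters' processing notes, without a version, and the counting tool and its strand setting are not given in the sources used here. The authors deposited 1 table of CPM with 32245 gene columns. Each line summed to 1000000, and dividing by the value of a single read gave whole reads, within 0.001 reads, for all 9484843 values above 0 (median 434101 reads per cell, 57873 to 1455022). Line sums, depth and genes detected used every column. All else used 4999 columns: 281 genes of lists and 4718 drawn at random from genes detected in at least 21 cells, so counts of genes refer to these. The members and lists were chosen with earlier results of these data known.

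Clustering left out Hox genes and Hox cluster RNAs (2000 variable genes, 30 components, 15 neighbours, Leiden at resolution 1 in leidenalg 0.10.2) and gave 11 clusters, named from 10 marker lists. A cluster that also held over 50% of another list's markers stayed unnamed (38 cells), and no doublet caller was run. The mouse was the replicate. P-values rest on the spread between mice pooled over all groups of a fit, not on that among MB/HB mice alone. Mice with at least 10 astrocyte-like cells (19 VISp, 2 CBX, 4 MB/HB) entered limma 3.58.1 (R 4.3.3) on log2(mean CPM + 1), filtered at a mean of 1 CPM in 2 mice, with Benjamini-Hochberg adjustment and a threshold of 0.05. The script was tested on simulated data. Text names the members, other Hox genes called, up to 4 called genes per list and direction, up to 2 not called, and the genes most like the members (5 over mice, 5 in each direction over cells). Some genes that this rule takes are not reported here. Hoxaas3, En2 in cells and the class shares were chosen after their values were seen. Alternatives changed the pseudocount, filter, cell classes, summing, plates and mice. The planned count model was not run on a table deposited as CPM. Summed reads per mouse as CPM, chosen after seeing the data, took its place.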

Additional observations from a re-analysis of the deposited data

Results flagged for a closer look

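In 15 measures of the MB/HB astrocyte-like cells, 1 of the 4 mice stood apart in 4. Its gap to the nearest other mouse was a larger part of the range than Dixon's 95% critical value allows. That value gives about 1 in 20 by chance for normally distributed values only. Many of these measures hold zeros or rest on few positive cells, and a gene found in 1 mouse alone always reaches 1.0. The number flagged therefore cannot be set against 1 in 20. Mouse D was high for Hoxb2 (gap over range 0.845), at 1.53 against 0.691 to 0.821 on the log2(mean CPM + 1) scale, from 1 cell with 16 reads. That cell also had 100 reads of the overlapping Hoxb3os. Mouse A was the only MB/HB mouse with Hoxb5 in astrocytes (1.0), at 2.71 against 0. It was also the only one without Hoxd3 (0.851), at 0 against 3.16 to 3.71. Mouse D had no cell with 2 or more members (0.843), against 19.4 to 23.1% of cells in mice A, B and C.

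Between the vectors, the limma difference was 2.06 for Hoxa5 (adjusted p = 0.00695, higher in both MGT_E160m mice) and -2.09 for Hoxc5 (adjusted p = 0.000416, lower in both). Hoxc5 rests on 1 cell with 1 read in the MGT_E160m mice and 3 cells in the eHGT_381h mice.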

How the results depend on the processing

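Each of the 6 members called against VISp kept its call and direction in every alternative in which it was tested (13 to 16 each), and so did Hotairm1, Hoxb3os and Hoxaas2 against both tissues. Genes called came to 12.5% of those tested against VISp, 8.95% against CBX and 0.494% between vectors. With log2(CPM + 1) averaged over cells, Hoxa2 and Hoxb3 alone of the members passed the filter, so 2 members were called against VISp and 2 against CBX. That scale moved the median of all genes against CBX to -0.62 and against VISp to -0.24, and called 39.8% of genes against CBX (11.9965% of these higher, beside 54.1%) and 0.174% between vectors. Of its calls against VISp 33.1% were higher, beside 49.2%. With all sorted cells, 2.97% were called against CBX and 0.876% between vectors, 74.8% of the calls against VISp were higher, and Meis2 against VISp reversed to 1.15. The cause was not tested. With only VISp and CBX mice that shared a sort plate with MB/HB cells, an alternative chosen after seeing the data, 3 members were called against CBX and 0.183% of genes between vectors. Leaving out 1 mouse gave 10.2 to 12.4% of genes against VISp, 4.33 to 9.33% against CBX (4.83 and 4.33% without a CBX mouse) and 0.497 to 4.73% between vectors (4.73% without mouse C, 3.74% without mouse A). It gave 5 to 6 members against VISp, 3 to 6 against CBX (3 without either CBX mouse), 36.2 to 46.1% of cells with a member and 0.654 to 0.865 members per cell. No paired analysis was possible because mouse numbers are not shared between groups. With 2 CBX mice and 2 mice a vector, those comparisons rest on pooled spread, and 0 reads of a gene in all MB/HB astrocyte-like cells allow a share of up to 2.03%.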
